A study of Mus musculus with 6 samples.

Results

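The genes described here are 9 factors grouped under the name of core gonadal identity factors: Nr5a1, Wt1, Gata4, Gata6, Zfpm2, Nr0b1, Dmrt1, Cited2 and Numb. They were taken by symbol from the deposited tables, and all 9 were found among the 11736 genes listed for each library. RNA was measured in somatic cells of XY C57BL/6 mouse gonads at E11.5. The 3 Cdyl-Het libraries come from gonads with a heterozygous Cdyl deficiency and the 3 Cdyl-KO libraries from gonads with a homozygous one. All 6 samples also carry the Nr5a1-hCD271 genotype, and the hCD271-positive cells were collected with magnetic beads. The name of the sorted marker ties it to Nr5a1, one of the genes measured here, and the part of the sort in the Nr5a1 values was not tested. The sources used here give neither the form of the Cdyl mutation nor whether a library held 1 embryo or a pool. The p-values therefore describe the spread among these samples alone, and that spread may be technical.

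As background, the gonad forms as a thickening of the coelomic epithelium whose cells can become the supporting cells of a testis or an ovary. The nuclear receptor NR5A1 and the zinc finger factor WT1 are needed for this primordium to survive and grow, and GATA4 is needed for its first thickening. GATA4 and GATA6 bind the same DNA motif, and the cofactor FOG2, the product of Zfpm2, binds GATA4 and is required with it for Sry expression and testis formation. CITED2 acts with WT1 to raise Nr5a1 expression, NR0B1 (DAX1) is a receptor without a classical DNA-binding domain that represses NR5A1, DMRT1 maintains the male fate of supporting cells after birth, and NUMB is an endocytic adaptor that lowers Notch signalling and is passed on unequally in asymmetric cell divisions.

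Levels are given as scaled RPKM, which counts reads relative to exon length and to library size, corrected by a factor that aligns the bulk of genes between libraries. Changes are the difference Cdyl-KO minus Cdyl-Het in log2(scaled RPKM + 1), a scale that understates the change of weakly expressed genes. They were tested with limma, and p-values were adjusted over all 11736 genes with a threshold of 0.05. A read total, fitted per library so that the deposited values came to whole reads, was 34.6 to 45.2 M. With it the values stood for between 679 and 20014 reads per library for these 9 genes. Cdyl itself, the targeted gene, was lower in all 3 Cdyl-KO libraries, at 6.92 ± 0.153 against 8.02 ± 0.230 scaled RPKM (SD, n = 3 per group; limma adjusted p = 0.0702). With the form of the mutation not known, this level does not check the genotype labels. The defining markers of gonadal somatic cells were all in the tables: Nr5a1, Wt1, Gata4, Emx2, Lhx9 and Tcf21 summed to between 318.5 and 362.2 scaled RPKM in Cdyl-Het and between 343.3 and 378.8 in Cdyl-KO. Nr5a1, Wt1 and Gata4 are themselves members, so this sum is not a separate check of cell identity. The remaining markers did not move alike, with log2 changes of 0.57 for Emx2, 0.46 for Lhx9 and -0.17 for Tcf21.

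Of the 9 factors, Nr0b1 and Cited2 rose in Cdyl-KO, none fell, and 7 did not pass the threshold by limma. Over all genes 7.50% were called, 4.67% as higher and 2.83% as lower in Cdyl-KO. At an unadjusted p under 0.05, 5 of the 9 were higher and 0 were lower, against 14.2% and 11.2% of all genes. The same 5 (Nr0b1, Cited2, Dmrt1, Gata6 and Numb) had all 3 Cdyl-KO libraries above all 3 Cdyl-Het libraries, an arrangement that 17.1% of all genes showed. The median log2 change of the 9 was 0.19, against 0.00 for all genes. Of the 9, 8 lay in the top level class when all genes were ranked by level into 4 equal classes. That class had a median change of 0.07, and 10.6% of its genes were called in either direction. Without scaling the median over all genes was -0.12, so the changes given are relative to that shift.

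**Figure D1:**
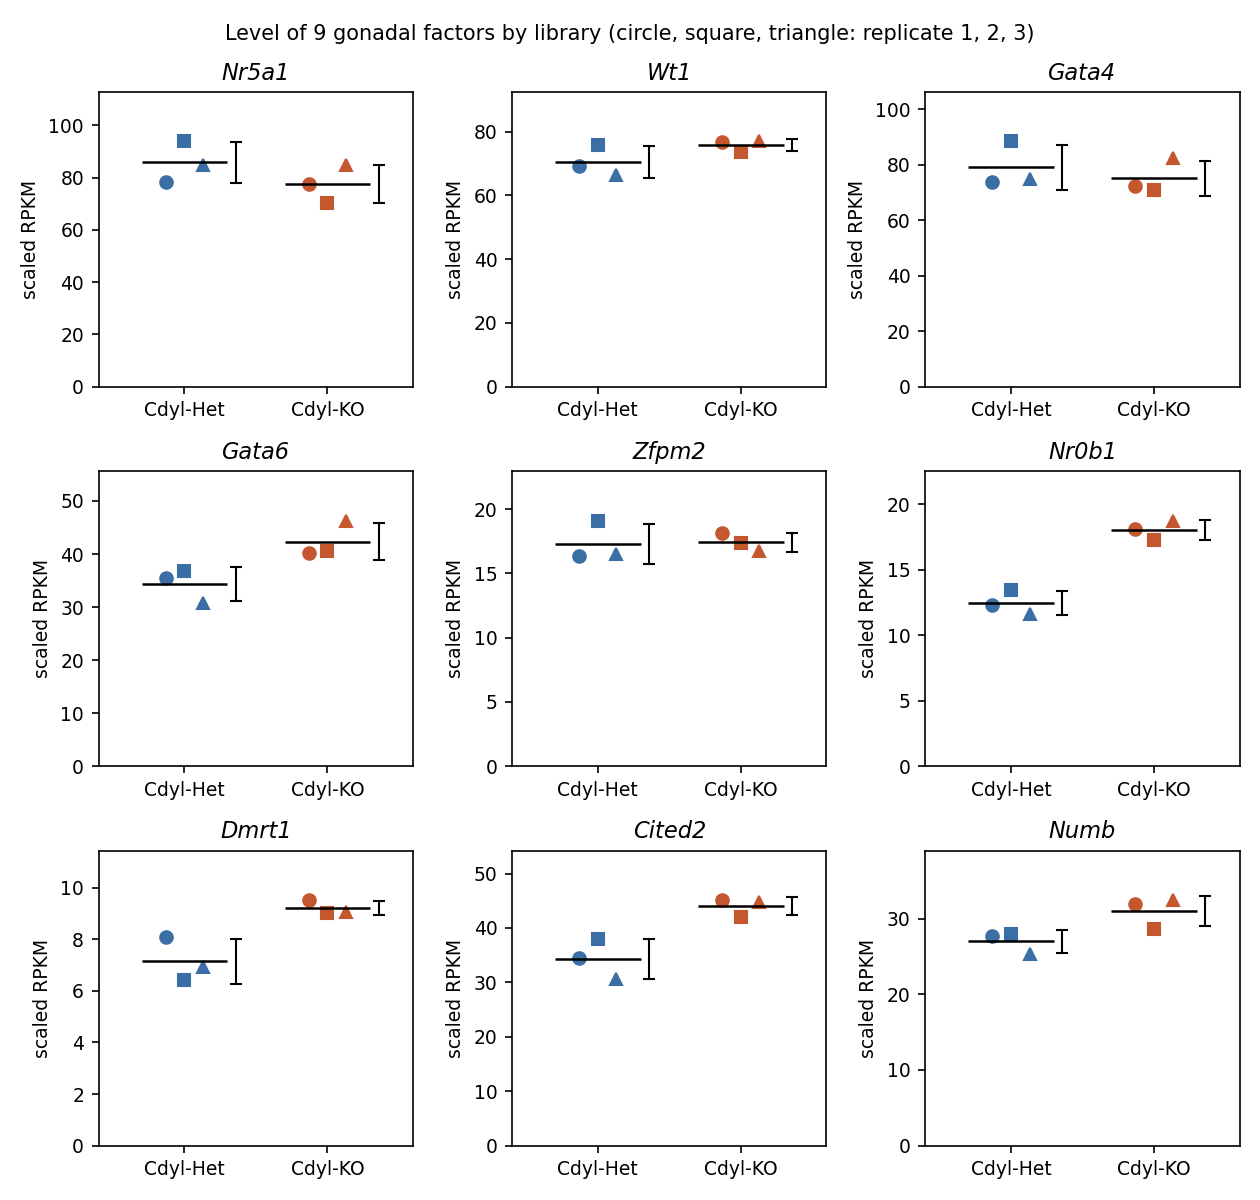
Level of each of the 9 factors in scaled RPKM (vertical axis, from 0) in each library, with replicates 1, 2 and 3 as circle, square and triangle, the mean as a line and the SD as a bar beside it (n = 3 per group). The Cdyl-KO points of Nr0b1, from 17.3 to 18.8, stand clear of its Cdyl-Het points, from 11.6 to 13.4, while those of Nr5a1, Wt1, Gata4 and Zfpm2 overlap.

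Nr5a1, the receptor that activates genes of steroid synthesis and of supporting cell differentiation (chromosome 2, 38692656 to 38714542, minus strand, mm10), was the most abundant of the 9 per length in both groups. Its level was 78.5, 93.98 and 85.0 scaled RPKM in Cdyl-Het replicates 1, 2 and 3 and 77.7, 70.4 and 85.0 in Cdyl-KO replicates 1, 2 and 3. The groups overlapped, and the highest and lowest libraries were replicate 2 of Cdyl-Het and replicate 2 of Cdyl-KO. The log2 change was -0.14 with a 95% interval of -0.36 to 0.07 (limma adjusted p = 0.383). On the unscaled deposited values the change was -0.29 (limma adjusted p = 0.0583).

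Wt1 (chromosome 2, 105126529 to 105173616, plus strand) encodes the zinc finger protein that acts in the coelomic epithelium and later in Sertoli cells. It was read at 69.4, 75.9 and 66.3 scaled RPKM in Cdyl-Het and at 76.8, 73.7 and 77.1 in Cdyl-KO. The Cdyl-KO libraries lay close together, and replicate 2 of Cdyl-Het fell among them. The log2 change was 0.11 with a 95% interval of -0.04 to 0.26 (limma adjusted p = 0.346), and its sign turned to -0.04 without scaling and to -0.03 after quantile normalization.

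Neither GATA factor passed the threshold. Gata4 (chromosome 14, 63198922 to 63271692, minus strand) was at 73.96, 88.6 and 74.8 scaled RPKM in Cdyl-Het and at 72.3, 70.8 and 82.3 in Cdyl-KO, and the groups overlapped. Its log2 change was -0.07 with a 95% interval of -0.29 to 0.14 (limma adjusted p = 0.668), and was 0.01 without Cdyl-Het replicate 2. Gata6 (chromosome 18, 11052064 to 11085635, plus strand) was at 35.6, 36.7 and 30.8 scaled RPKM in Cdyl-Het and at 40.2, 40.5 and 46.3 in Cdyl-KO. Every Cdyl-KO library of Gata6 lay above every Cdyl-Het library, but the difference missed the threshold (log2 change 0.30, 95% interval 0.09 to 0.50, limma adjusted p = 0.0863; 0.0704 to 0.197 over the alternatives). Exons of Gata6 overlap those of 1010001N08Rik. The library kit keeps strand, but the strand setting of the counting is not given, so reads of this pair may be shared. 1010001N08Rik was at 3.19 ± 0.197 scaled RPKM in Cdyl-Het and 4.12 ± 0.415 in Cdyl-KO (SD, n = 3 per group; log2 change 0.29, limma adjusted p = 0.0774). For Gata6 the reads implied by the annotation's exon length were not whole in any library, so its read numbers are approximate.

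Zfpm2, the gene of FOG2 (chromosome 15, 40655035 to 41104592, plus strand), was the member with the smallest change. It was at 16.3, 19.1 and 16.5 scaled RPKM in Cdyl-Het and at 18.2, 17.4 and 16.7 in Cdyl-KO, which fell within the Cdyl-Het range. The log2 change was 0.01 with a 95% interval of -0.16 to 0.18 (limma adjusted p = 0.947). Its sign turned to -0.13 without scaling, to -0.04 after quantile normalization, and to -0.03 without Cdyl-Het replicate 1. It was also -0.02 when replicate 3 of Cdyl-Het, or replicate 1 of Cdyl-KO, was left out.

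Cited2 (chromosome 10, 17723218 to 17725674, plus strand) encodes a protein that brings the acetyltransferases p300 and CBP to transcription factors and does not itself bind DNA. It was at 34.6, 37.9 and 30.6 scaled RPKM in Cdyl-Het and at 45.1, 42.1 and 44.8 in Cdyl-KO. All Cdyl-KO libraries were above all Cdyl-Het libraries, and the spread was wider in Cdyl-Het (SD 3.69) than in Cdyl-KO (SD 1.68). The rise was 1.28 times in the means (log2 change 0.35, SE 0.08, limma adjusted p = 0.0467). This call stood near the threshold. Over the alternatives the adjusted p was 0.0367 to 0.131, and with 1 library left out it passed only without Cdyl-Het replicate 2 (0.0483). Leaving out replicate 1 or 3 of Cdyl-Het gave 0.0986 or 0.0975, and leaving out replicate 1, 2 or 3 of Cdyl-KO gave 0.131, 0.0846 or 0.117. It also missed the threshold without scaling (log2 change 0.21, adjusted p = 0.095 by limma), after quantile normalization (0.0621) and in limma without trend (0.0634).

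Nr0b1 (chromosome X, 86191764 to 86195947, plus strand), the repressor of NR5A1 and a dosage-sensitive gene of sex determination, showed the largest and steadiest change. It was at 12.3, 13.4 and 11.6 scaled RPKM in Cdyl-Het and at 18.1, 17.3 and 18.8 in Cdyl-KO. The highest Cdyl-Het library stayed well below the lowest Cdyl-KO library, and both groups were tight (SD 0.923 and 0.741, n = 3 each). The mean rose 1.45 times (log2 change 0.50, SE 0.07, 95% interval 0.35 to 0.66, limma adjusted p = 0.00907). The call held in all 19 alternatives, with log2 changes of 0.37 to 0.56 and adjusted p of 0.00655 to 0.0444 by limma. The values stood for 806 to 1422 reads per library.

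The 250 bases before the RefSeq start sites of these 2 genes are shown because these are the 2 members that passed the threshold and RefSeq windows were matched for both (build GRCm38.p6, which is mm10). Windows of 3 of the 9 members were matched in all (Cited2, Nr0b1 and Numb). Capitals mark every match, on either strand, to any of 6 motifs. NR5A receptors bind AAGGTCA. The GATA factors bind AGATAA. WT1 and EGR proteins bind GCGGGGGCG. The E-box searched was CACGTG. The core of nuclear receptor sites is AGGTCA, which is contained in the NR5A motif. The TATA box searched was TATAAA. The last 2 motifs were added after the sequences had been seen.
Nr0b1, chrX:86191525-86191774, plus strand: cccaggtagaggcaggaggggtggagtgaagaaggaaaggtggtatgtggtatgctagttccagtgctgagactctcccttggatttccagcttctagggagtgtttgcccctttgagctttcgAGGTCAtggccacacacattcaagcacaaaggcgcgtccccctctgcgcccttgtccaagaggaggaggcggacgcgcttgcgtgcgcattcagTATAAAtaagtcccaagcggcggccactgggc
Cited2, chr10:17722978-17723227, plus strand: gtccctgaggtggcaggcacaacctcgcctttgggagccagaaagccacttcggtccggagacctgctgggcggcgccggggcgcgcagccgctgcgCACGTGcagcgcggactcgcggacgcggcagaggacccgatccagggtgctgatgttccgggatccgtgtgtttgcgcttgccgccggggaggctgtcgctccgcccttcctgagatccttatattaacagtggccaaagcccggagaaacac
The Nr0b1 window held AGGTCA from 126 bases and TATAAA from 32 bases before the start site, and none of the other motifs. The Cited2 window held CACGTG from 153 bases before the start site and none of the others. Among 32851 windows of 300 bases for all genes, AAGGTCA was found in 4.72%, AGATAA in 11.2%, GCGGGGGCG in 2.91%, CACGTG in 7.15%, AGGTCA in 16.3% and TATAAA in 13.6%. These matches describe letters and not bound sites.

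Dmrt1 (chromosome 19, 25505618 to 25604329, plus strand), a DM-domain transcription factor, was the least abundant member per length. It was at 8.10, 6.42 and 6.91 scaled RPKM in Cdyl-Het and at 9.51, 9.03 and 9.05 in Cdyl-KO. The groups did not overlap, with replicate 1 of Cdyl-Het nearest to the Cdyl-KO libraries. The difference missed the threshold (log2 change 0.33, 95% interval 0.14 to 0.52, limma adjusted p = 0.0548; 0.0212 to 0.160 over the alternatives) and passed it without Cdyl-Het replicate 1 (0.0212) and when only genes with a mean of at least 5 scaled RPKM were tested (0.0417). Germ cells also express Dmrt1. Of 10 listed germ cell markers, Kit and Nanos3 were in the tables, and their sum was 3.34 to 5.15 scaled RPKM in Cdyl-Het and 3.14 to 3.77 in Cdyl-KO. The part of germ cells in the Dmrt1 values was not tested.

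Numb (chromosome 12, 83794034 to 83921934, minus strand) was at 27.7, 27.96 and 25.3 scaled RPKM in Cdyl-Het and at 31.9, 28.7 and 32.4 in Cdyl-KO. The groups did not overlap, though replicate 2 of Cdyl-KO was close to the Cdyl-Het values. The log2 change was 0.19 with a 95% interval of 0.03 to 0.35 (limma adjusted p = 0.133), and it was 0.05 without scaling. Exons of Numb overlap those of Gm46367, so some reads may be shared.

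**Figure D2:**
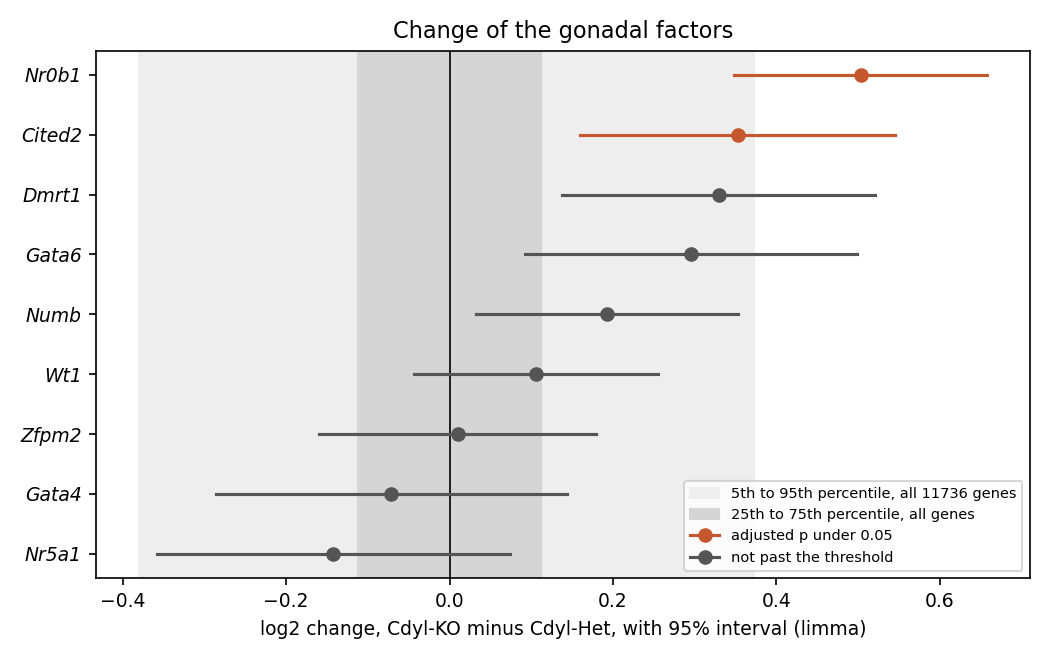
Log2 change of each factor (Cdyl-KO minus Cdyl-Het, log2(scaled RPKM + 1)) with its 95% interval from limma, on bands for the middle of all 11736 genes. Nr0b1 at 0.50 lies beyond the 95th percentile of all genes (0.37), Cited2 at 0.35 lies just inside it, and the intervals of Wt1, Zfpm2, Gata4 and Nr5a1 include 0.

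The order of levels within the set was partly the same in both groups. In Cdyl-Het it ran from Nr5a1 through Gata4, Wt1, Gata6, Cited2, Numb, Zfpm2 and Nr0b1 to Dmrt1, and in Cdyl-KO from Nr5a1 through Wt1, Gata4, Cited2, Gata6, Numb, Nr0b1 and Zfpm2 to Dmrt1. The ranges of Nr5a1, Gata4 and Wt1 overlapped between neighbours in both groups, as did those of Gata6 and Cited2. Overlap of ranges does not compare neighbours within the same library. Within single Cdyl-Het libraries the order from Nr5a1 to Gata4 and from Gata4 to Wt1 held in 3 of 3, while in Cdyl-KO the order from Nr5a1 to Wt1 and from Wt1 to Gata4 held in 2 of 3. Zfpm2 was above Nr0b1 in all 3 Cdyl-Het libraries with no overlap of their ranges. In Cdyl-KO the ranges of Nr0b1 and Zfpm2 overlapped, and Zfpm2 was higher in 2 of 3 libraries.

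Within a group, many members were highest or lowest in the same library. How many of all genes share this library pattern was not counted, so whether it is particular to the members is not known. Replicate 2 of Cdyl-Het was the highest of its group for 8 of the 9 members (all but Dmrt1), and replicate 3 of Cdyl-Het was above the group mean for 0 of the 9. In Cdyl-KO, replicate 3 was highest for 6 members and replicate 2 was above the group mean for 0 of the 9. The SD came to 5.51% to 12.1% of the mean in Cdyl-Het and to 2.43% to 9.41% in Cdyl-KO. If both reads of a pair were counted, counting alone gives 1.03% for Wt1 and up to 4.77% for Dmrt1. Of the 9 members, only Dmrt1 in Cdyl-KO (2.99%) and Nr0b1 in Cdyl-KO (4.10%) had a spread at or below their own counting error (4.77% and 4.18%).

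Ratios of scaled RPKM within a library do not depend on the scaling of that library. The ratios printed here have no pseudocount, while the log2 differences and their tests use scaled RPKM + 1, so they do not follow exactly from the printed ratios. For 6 pairs of members, the log2 ratio was compared between groups with a two-sided exact permutation test. With 3 against 3 libraries this test cannot give a p below 0.1. Several pairs share Nr5a1 or Gata4 as the denominator, so their directions are not separate results. The ratio of Nr0b1 to Nr5a1, repressor to receptor, was 0.157, 0.143 and 0.137 in Cdyl-Het, against 0.233, 0.246 and 0.221 in Cdyl-KO. All Cdyl-KO libraries were higher (difference of mean log2 ratios 0.65, exact permutation p = 0.1, 0.12 after Benjamini-Hochberg adjustment over the 6 ratios). The ratio of Gata6 to Gata4 was 0.481, 0.415 and 0.412 in Cdyl-Het, against 0.557, 0.572 and 0.563 in Cdyl-KO. The Cdyl-KO libraries were again all higher and lay close together (difference 0.37, same exact permutation p).

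The other 4 pairs were compared in the same way. The ratio of Dmrt1 to Nr5a1 was 0.103, 0.0684 and 0.0812 in Cdyl-Het, against 0.122, 0.128 and 0.106 in Cdyl-KO (difference 0.47). The ratio of Wt1 to Nr5a1 was 0.883, 0.808 and 0.780 in Cdyl-Het, against 0.988, 1.05 and 0.907 in Cdyl-KO (difference 0.25). The ratio of Cited2 to Wt1 ran over 0.498, 0.4996 and 0.461 in the Cdyl-Het libraries and over 0.588, 0.571 and 0.582 in the Cdyl-KO libraries (difference 0.25). In these 3 pairs all Cdyl-KO libraries were higher, each with the smallest exact permutation p of 0.1. The ratio of Zfpm2 to Gata4, cofactor to factor, was 0.221, 0.216 and 0.221 in Cdyl-Het, against 0.251, 0.245 and 0.203 in Cdyl-KO, with replicate 3 of Cdyl-KO the lowest of all (difference 0.08, exact permutation p = 0.4). The test thus passed no threshold of 0.05 for any of the 6 ratios, and could not have done so.

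**Figure D3:**
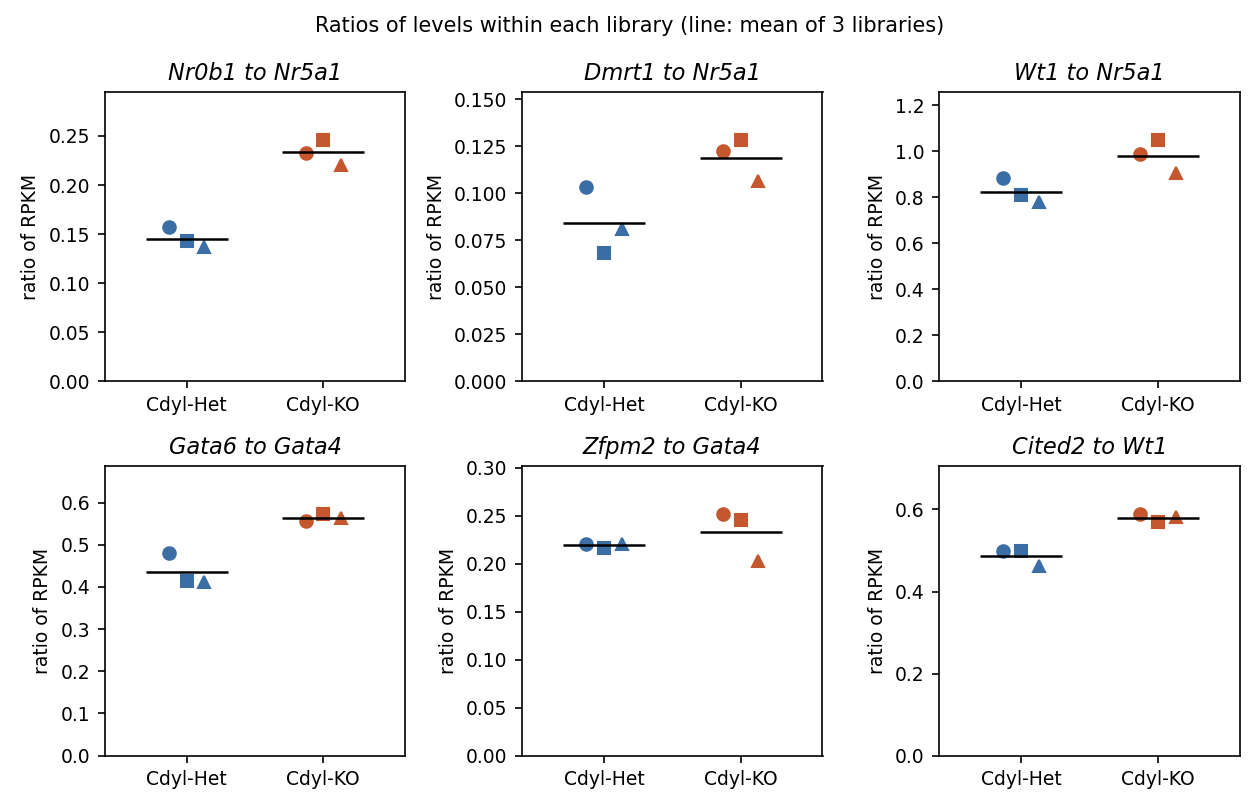
Ratio of the levels of paired factors (vertical axis, RPKM over RPKM, from 0) in each library, with replicates 1, 2 and 3 as circle, square and triangle and the group mean as a line. The ratio of Nr0b1 to Nr5a1 lies between 0.137 and 0.157 in Cdyl-Het and between 0.221 and 0.246 in Cdyl-KO, while the ratio of Zfpm2 to Gata4 overlaps between groups.

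Genes known to act with or below these factors were described through 7 lists. Of 107 listed genes, 74 were in the tables, where 10 were higher, 4 were lower and 18.9% in all were called, with a median log2 change of 0.03. Over all genes 7.50% were called, and 10.6% of those in the top level class. The lists were chosen with earlier results of these data known, so these shares are a description and not a test. The other listed genes were not analysed here, so the counts cover only genes in the tables.

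Among 16 targets and partners of NR5A1, 1 rose, 2 fell and 13 missed the threshold (limma, median log2 change -0.14). Of these 16, 1 was higher and 5 were lower at an unadjusted p under 0.05, against 14.2% and 11.2% of all genes. Amhr2, the receptor for anti-Müllerian hormone, rose from 34.6 ± 2.16 to 48.4 ± 2.87 scaled RPKM (n = 3 each, ± SD; limma adjusted p = 0.0115). Hsd3b1, an enzyme of steroid synthesis, fell from 4.81 ± 0.383 to 2.33 ± 0.0581 (log2 change -0.80, limma adjusted p = 0.00264) and was called in all 18 alternatives that tested it. The other gene that fell, the coactivator gene Ppargc1a, went from 2.39 to 1.07 scaled RPKM (limma adjusted p = 0.0341). It lost its call when replicate 2 or 3 of Cdyl-Het was left out (0.0986 and 0.116) and when replicate 1 or 2 of Cdyl-KO was (0.0976 and 0.0882; 0.0190 to 0.116 over the alternatives). Star, which carries cholesterol into mitochondria, was at 8.20 and 4.68 scaled RPKM and did not pass (limma adjusted p = 0.0536; 0.0246 to 0.143 over the alternatives). On the same list Cyp11a1 and Fdx1 hardly moved (log2 change -0.01 and 0.03). Scarb1 and Fdxr had log2 changes of -0.43 and -0.23, and none of these passed. Summed markers of the adrenal primordium, which also expresses Nr5a1 and Star, were 14.8 to 21.5 scaled RPKM in Cdyl-Het and 10.9 to 11.6 in Cdyl-KO (4 of 5 in the tables). Star is one of these 4, and the other 3 summed to 8.60 to 10.9 in Cdyl-Het and 5.89 to 7.01 in Cdyl-KO. Their part in these values was not tested.

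Among 11 partners and targets of WT1, 4 rose, 0 fell and 7 missed the threshold (limma, median log2 change 0.23). At an unadjusted p under 0.05, 6 were higher and 1 was lower, against 14.2% and 11.2% of all genes. Podxl, a sialomucin of the epithelial surface, rose from 80.7 ± 7.62 to 122 ± 3.68 scaled RPKM (n = 3 each, ± SD). Gas1, a membrane protein that binds hedgehog, rose from 34.0 ± 1.84 to 50.7 ± 2.16 (limma adjusted p = 0.00543), and the signal gene Wnt4 had a log2 change of 0.56. Igf2, a growth factor, rose from 107.8 ± 6.65 to 137.8 ± 6.36 (limma adjusted p = 0.0253), a call lost without any one of 5 libraries (0.0584 to 0.0775) and kept without Cdyl-Het replicate 1 (0.0197 to 0.239 over the alternatives). Egr1, whose product binds a motif like that of WT1, was at 60.3 and 71.4 scaled RPKM and did not pass.

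Relatives of the GATA and DMRT factors gave no call. None of the 5 GATA and FOG family genes in the tables passed by limma (Gata2, Gata3, Gata5, Zfpm1 and Trps1, median log2 change -0.06). Of these 5, 1 was higher and 0 were lower at an unadjusted p under 0.05, against 14.2% and 11.2% of all genes. Dmrta1, the member of the DMRT family in the tables, was at 3.97 and 5.43 scaled RPKM (log2 change 0.37, limma adjusted p = 0.0804). Of 4 partners and relatives of CITED2, the coactivator genes Ep300 and Crebbp and the oxygen-regulated transcription factor gene Hif1a did not pass, and Cited4 fell from 4.47 ± 1.34 to 1.57 ± 0.574 scaled RPKM (log2 change -1.08, limma adjusted p = 0.0344). The call of Cited4 was lost when replicate 2 or 3 of Cdyl-Het was left out (0.106 and 0.124) and when replicate 1 or 2 of Cdyl-KO was (0.0916 and 0.085; 0.0165 to 0.124 over the alternatives).

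Among 21 partners of NUMB and genes of the Notch pathway, 1 rose, 1 fell and 19 missed the threshold (limma, median log2 change 0.01). Of these 21, 3 were higher and 3 were lower at an unadjusted p under 0.05, against 14.2% and 11.2% of all genes. Hey1, a repressor induced by Notch, rose from 7.73 ± 0.367 to 10.8 ± 0.429 scaled RPKM (n = 3 each, ± SD; log2 change 0.43, limma adjusted p = 0.00938). Notch1, a receptor also abundant in endothelium, fell from 2.38 ± 0.185 to 1.45 ± 0.228 (limma adjusted p = 0.0399), and its call was lost whichever library was left out (0.0532 to 0.114; 0.0199 to 0.122 over the alternatives). Hes1, another repressor induced by Notch, was at 13.3 and 13.8 scaled RPKM and did not pass. Heyl, on the same list, was lower in Cdyl-KO, at 2.21 and 1.41 scaled RPKM in Cdyl-Het and Cdyl-KO. It did not pass either (log2 change -0.41, limma adjusted p = 0.0952). Endothelial markers moved with Notch1: of the 8 of 12 in the tables, 4 fell and 0 rose (7 lower and 0 higher at an unadjusted p under 0.05 by limma, against 11.2% and 14.2% of all genes), and their sum was 33.1 to 36.3 scaled RPKM in Cdyl-Het and 21.7 to 23.95 in Cdyl-KO. With any 1 library left out, 1 or 2 endothelial markers were called lower, and Kdr kept its call in each of these fits. Their part in the changes given here was not tested. In such bulk samples, fewer cells of a type and less RNA per cell cannot be told apart.

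Other factors of the primordium included 4 that rose, 0 that fell and 12 that did not pass, of 16 in the tables (limma, median log2 change 0.16). Of these 16, 8 were higher and 2 were lower at an unadjusted p under 0.05, against 14.2% and 11.2% of all genes. The homeobox factor Emx2 rose from 53.4 ± 5.47 to 79.5 ± 4.24 scaled RPKM and was called in all 19 alternatives, as was Gadd45g, an activator of stress kinases upstream of Sry. Lhx9, a LIM homeobox factor that raises Nr5a1 together with WT1, was also called (limma adjusted p = 0.0273). Its call was lost when replicate 2 of Cdyl-Het or 1 Cdyl-KO library of any number was left out (0.0624 to 0.0873). Kdm3a, a histone H3K9 demethylase, lost its call without Cdyl-KO replicate 1 (0.0532). Both also lost their calls when limma was fitted with a replicate block (adjusted p = 0.0588 for Lhx9 and 0.0519 for Kdm3a). Tcf21, a basic helix-loop-helix factor that represses Nr5a1, had a log2 change of -0.17 and Ctnnb1, the gene of beta-catenin, one of -0.01, and neither passed.

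**Figure D4:**
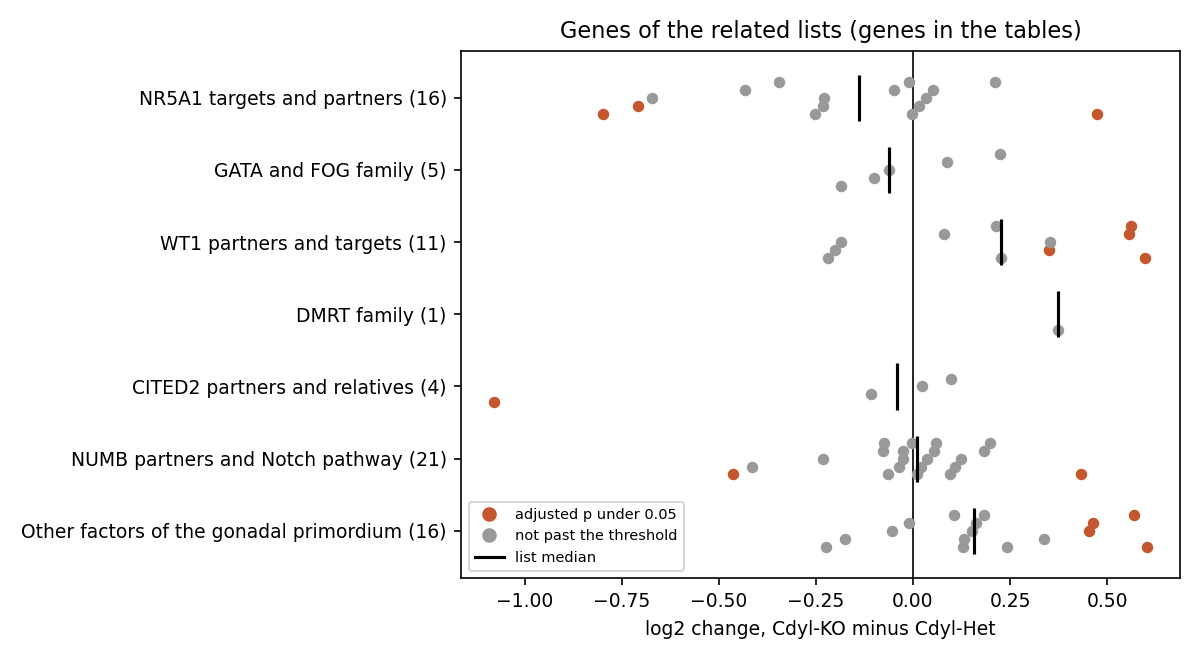
Log2 change (Cdyl-KO minus Cdyl-Het, horizontal axis) of each gene of the 7 lists that was in the tables, with genes past an adjusted p of 0.05 in orange and the list median as a line. The median lies at 0.23 for the 11 WT1 partners and targets and at -0.14 for the 16 NR5A1 targets and partners, and Cited4 lies farthest to the left.

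Markers of other cells were also read. Mesonephric epithelium markers (6 of 8 in the tables) summed to 12.95 to 18.8 scaled RPKM in Cdyl-Het and 15.6 to 18.9 in Cdyl-KO, and Pax8 among them was called higher (limma adjusted p = 0.0227), a call lost in 5 of 6 fits with 1 library left out and kept without Cdyl-Het replicate 1. Blood markers (6 of 12) summed to 50.4 to 253 in Cdyl-Het and to 52.8 to 153 in Cdyl-KO. Replicate 2 of Cdyl-Het and replicate 3 of Cdyl-KO, the libraries in which most members were highest, also had the highest blood sums of their groups. The other libraries did not all follow the blood sums. Replicates 1 and 2 of Cdyl-KO had blood sums of 52.8 and 56.8, with 7 and 0 members above the group mean. Replicates 1 and 3 of Cdyl-Het had blood sums of 170.4 and 50.4, with 4 and 0 members above it. Hand2 was the one marker of neural crest, nerve and muscle in the tables (1 of 8), at 3.61 to 3.98 and 3.10 to 3.76. Their part in the members' values was not tested.

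Genes with the pattern nearest to a member over the 6 libraries were ranked by Pearson r of log2(scaled RPKM + 1) among 6655 genes with a mean of at least 5 scaled RPKM. These are descriptions over 6 libraries that share the group difference and their depth, and carry no p. For Nr0b1 they were Clic1, Rpp25 and Net1 (r = 0.999, 0.998 and 0.997) and for Dmrt1 Ndufb10, Copg2 and Stmn1 (0.993, 0.992 and 0.991). For Nr5a1 they were Mtss1l, Mex3c and Usp10 (0.999, 0.982 and 0.980), and for Gata4 Firre, Pdxdc1 and Mlec (0.990, 0.988 and 0.980). With so few libraries many genes reach such values: 288 genes had an r over 0.95 with Nr0b1 and 21 with Nr5a1. Among the members themselves, r ran from -0.736 between Nr5a1 and Dmrt1 to 0.967 between Nr0b1 and Cited2. It was 0.893 between Nr5a1 and Gata4 and 0.061 between Nr5a1 and Wt1.

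**Figure D5:**
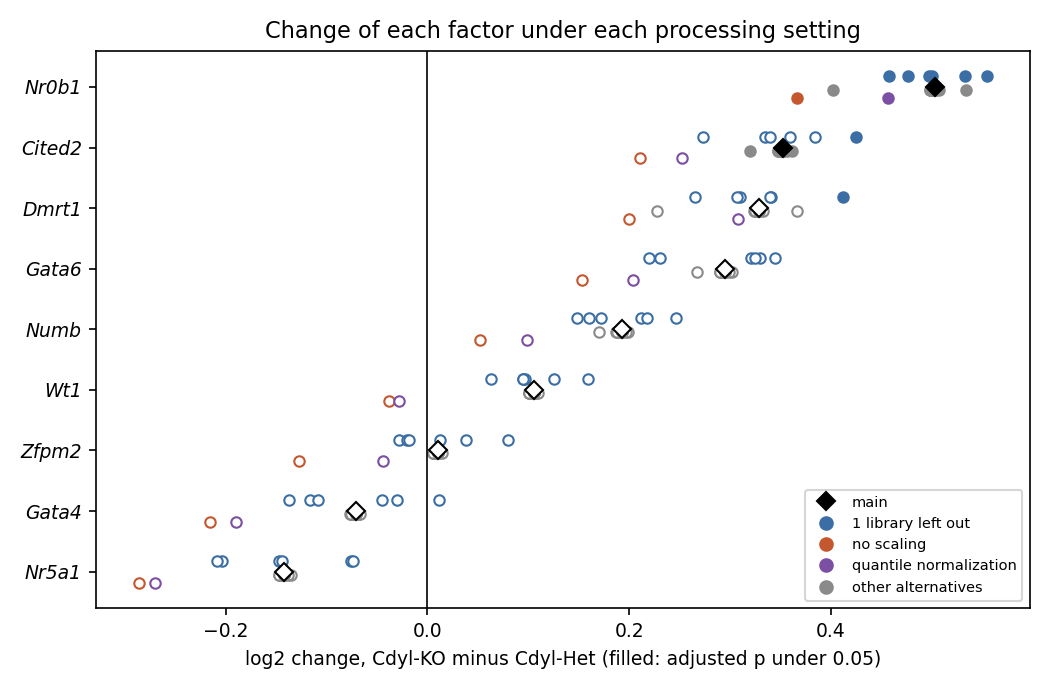
Log2 change of each factor under the reported setting (diamond) and 19 alternatives (circles), filled where the limma adjusted p is under 0.05. Every point of Nr0b1 is filled and lies between 0.37 and 0.56, those of Cited2 are filled in 10 of 19 alternatives, and those of Wt1, Zfpm2 and Gata4 lie on both sides of 0. The 10 of Cited2 include every change of the scaling reference, which differ little from the reported setting.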

How the data were processed

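RNA of 3 Cdyl-Het and 3 Cdyl-KO samples was sequenced from a stranded total RNA kit, per the labels' protocols. The submitters' processing notes name STAR, Subread, featureCounts 1.6.4 and the build mm10 without parameters. The authors deposited 1 value per gene and library, which was read as RPKM from its values. Each value was multiplied by the gene's exon length in GENCODE M21 and by a read total fitted per library to give whole reads. Between 78.6% and 82.4% of values then came to whole reads within a tolerance of 0.02 for 11540 genes. This share is not independent of the fitted total. Between 82.5% and 85.4% of the whole values were even numbers.

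Each library was scaled by a trimmed mean of log ratios to Cdyl-Het replicate 1 (30% of ratios and 5% of levels trimmed). Group differences of log2(scaled RPKM + 1) were fitted in limma 3.58.1 (R 4.3.3) with a trend and Benjamini-Hochberg adjustment over 11736 genes, after a test on simulated data. No count model was used, since the values are not counts. Alternatives were no scaling, median of ratios, quantile normalization, pseudocounts of 0.1 and 5, a minimum mean of 5 scaled RPKM, limma without trend, a replicate block, and each library left out. The scaling reference was varied after the data had been seen.

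All members were named, with up to 4 called genes per list, genes at or above the level of the lowest member where a level was needed, and, for 4 members, the 3 genes most like each; 1 such result is not reported here. Star, Cyp11a1, Fdx1, Scarb1, Fdxr, Dmrta1, Heyl, the GATA relatives and 1010001N08Rik were named after their values were seen. Members and lists were chosen with earlier results of these data known.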

Additional observations from a re-analysis of the deposited data

How the results depend on the processing

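Of the 9 members, Nr0b1 kept its call in all 19 alternatives and Cited2 in 10, and none was called lower in any of them. The 10 of Cited2 include every change of the scaling reference. Those fits were added after the data had been seen and differ little from the reported one (limma adjusted p 0.0436 to 0.0495). The number of members called higher was 1 without scaling, after quantile normalization, in limma without trend and with the replicate block, 1 to 2 with 1 library left out, and 3 (with Dmrt1) among genes with a mean of at least 5 scaled RPKM. Without scaling 1863 genes were called, 305 higher and 1558 lower, against 880 (548 and 332) as reported. With 1 library left out 253 to 642 genes were called, fewest without Cdyl-Het replicate 3. Over the 7 lists, the genes called lower, 4 as reported, were 11 without scaling, 2 after quantile normalization, 1 among genes with a mean of at least 5 scaled RPKM (fewer genes tested), and 1 to 4 with 1 library left out, where 7 to 11 were called higher. The sign turned for Wt1 without scaling (-0.038) and after quantile normalization (-0.028), for Zfpm2 in the same fits (-0.13 and -0.0439) and over the left-out libraries (-0.028 to 0.080), and for Gata4 over the left-out libraries (-0.14 to 0.012); the cause was not tested. Samples of the same replicate number did not deviate alike (correlations of deviations -0.05, -0.27 and -0.05 for numbers 1, 2 and 3, against -0.144 to 0.222 for other pairs). The labels do not say whether the numbers pair the samples, and so few libraries cannot settle it. The replicate block gave 337 called genes, 6 listed genes higher and 2 lower, and an adjusted p of 0.0444 for Nr0b1, 0.12 for Cited2 and 0.0553 for Amhr2 by limma. None of the 6 ratios changed sign. Depth limits Dmrt1 and Nr0b1 most, with counting errors of 4.77% and 4.18%.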
